A study of Mus musculus with 8 samples.

Results

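Transcripts of the adaptor Sh3bp2, of the tankyrases Tnks and Tnks2, and of the kinases and signalling partners Syk, Plcg2, Btk, Blnk, Vav1, Vav3 and Abl1 were followed in mouse bone marrow-derived macrophages. The 10 genes were chosen by symbol for their known biochemical links to Sh3bp2, and all 10 were found among the 11541 genes measured. Only Syk, Btk and Abl1 of them encode tyrosine kinases. RNA-seq was done on 4 libraries with the genotype label OGFRL1_KO (KO) and 4 with the label OGFRL1_WT (WT), to compare macrophages that lack Ogfrl1 with wild-type ones. Both groups were primary cells grown from non-adherent marrow in M-CSF, the macrophage growth factor, at 25 ng/mL over 4 days, and the labels name no other treatment. Age, strain, the kind of deletion and whether each library came from a separate animal are not stated in the labels, so a p-value here speaks only of variation among libraries, some of which may be technical.

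SH3BP2 is a cytoplasmic adaptor protein of myeloid and lymphoid cells, first isolated through its binding to the SH3 domain of ABL1. Receptors that carry or pair with an immunoreceptor tyrosine-based activation motif (ITAM) recruit SYK, which phosphorylates adaptors such as SH3BP2 and BLNK. These bring PLCG2, BTK and the VAV exchange factors to the membrane. The tankyrases attach poly(ADP-ribose) to SH3BP2, which marks the protein for destruction. In humans, mutations in the tankyrase-binding stretch of SH3BP2 cause cherubism, a disease of the jaw with excess osteoclasts, and mice with such a mutation have overactive macrophages.

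Total counts were 47779990 to 53567289 reads in the KO libraries and 39601341 to 61556269 reads in the WT libraries, and the 10 genes held 3148 to 17493 reads each per library. WT 1 and WT 2 stood apart from the other 6 libraries. They held 1.79 to 1.83% ribosomal RNA reads against 2.71 to 9.1% in the others, 6.07 to 7.03% mitochondrial reads against 1.49 to 3.17%, and 75.76 to 76.44% uniquely mapped reads against 83.83 to 87%. Differences of the 10 genes and of the pathway genes named are therefore also given, singly or as a range, without them. Ogfrl1 itself had 159, 197, 149 and 146 CPM (counts scaled to library size) in KO 1 to 4, against 267, 284, 166 and 135 CPM in WT 1 to 4. The groups overlapped and the log2 fold change was -0.39 (SE 0.24, edgeR adjusted p = 0.404), or 0.12 without WT 1 and WT 2, so counts over the whole gene did not check the genotype labels, and reads inside the deleted part were not analysed here. All 10 macrophage markers looked up were present, with summed levels of 21018 to 22695 CPM in KO and 18784 to 21687 CPM in WT libraries.

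None of the 10 genes passed the test between KO and WT macrophages. In edgeR's quasi-likelihood test with Benjamini-Hochberg adjustment over all genes, 0 of 10 had an adjusted p under 0.05, where 0% of all 11541 genes did. At an unadjusted p under 0.05 there were 0 of 10, beside 752 genes or 6.52% of all, with 0 members higher in KO beside 2.01% of all genes and 0 lower beside 4.51%. DESeq2 and limma-voom called 0 of the 10 as well, while limma-voom with library quality weights called 8 of 10 and 6162 genes in all. The KO and WT values overlapped for every member, and 2.64% of all genes had groups that did not overlap. The log2 fold change was positive for 6 of 10 members, with a median of 0.02, beside 49.3% of all genes. The 95% intervals of the 10 differences lay between -0.48 and 0.61 on the log2 scale. In bulk RNA a lower level cannot be assigned, because fewer expressing cells and less RNA per cell cannot be told apart.

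Per length as given by the authors, Blnk and Plcg2 transcripts were the most abundant of the 10 and Abl1 and Tnks the least. The order depends on the lengths used. Blnk was scaled to 2097 bases, where its GENCODE exons hold 5991, and Plcg2 to 4298, where its exons hold 4298. On the authors' FPKM scale, the geometric mean over the 8 libraries was 72.1 for Blnk, 65.6 for Plcg2, 53.8 for Sh3bp2, 53.2 for Vav1 and 53.1 for Btk. Syk followed with 44.8 FPKM, Tnks2 with 35.4, Vav3 with 25.2, Abl1 with 14.9 and Tnks with 13.1. The ranges over libraries did not overlap at 3 steps of this order, Plcg2 above Sh3bp2, Tnks2 above Vav3, and Vav3 above Abl1. At the other steps neighbours overlapped. Blnk was above Plcg2 in 5 of 8 libraries, Syk above Tnks2 in 6, and Abl1 above Tnks in 6.

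**Figure D1:**
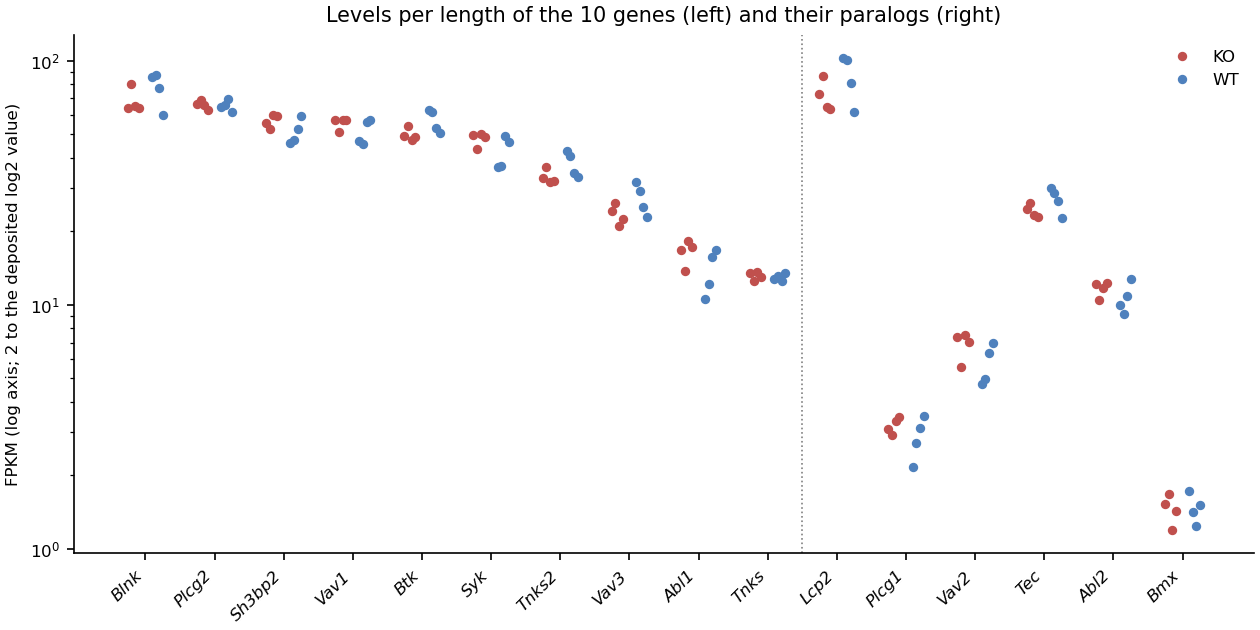
Levels per transcript length (authors' FPKM, log axis) of the 10 genes and of their 6 measured paralogs, with KO libraries left of WT libraries and each point 1 library. Blnk, Plcg2, Sh3bp2, Vav1 and Btk sit highest among the members, and the Tec-family kinase Bmx sits lowest of all 16 genes.

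Sh3bp2 lies at chr5:34525784-34563639 on the plus strand (mm10). Its coding sequence holds 1 match to the pattern that tankyrases bind, in exon 9 of 13, at codons 469 to 474 of 615 in the longest GENCODE isoform. The stretch is shown because tankyrase acts on the protein there; it is reference sequence from GRCm38, chr5:34560344-34560407, plus strand, 5′ to 3′, with the 6 codons of the match in capitals.
Sh3bp2 tankyrase-binding stretch: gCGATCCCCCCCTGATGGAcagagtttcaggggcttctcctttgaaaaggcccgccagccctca

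Sh3bp2 had 187, 178, 202 and 201 CPM in KO 1 to 4, against 156, 160.5, 177 and 200.2 CPM in WT 1 to 4. WT 1 and WT 2 were the lowest of all 8 libraries, and WT 4 lay among the KO libraries. The mean was 192 ± 11.5 CPM in KO and 173 ± 20.1 CPM in WT (SD, n = 4 each), a log2 fold change of 0.15 (SE 0.09, edgeR adjusted p = 0.404). The exact two-sided permutation test over the 70 assignments gave p = 0.114, where the smallest p it allows is 0.0286. Per length, the level was 56.8 ± 3.40 FPKM in KO and 51.2 ± 5.93 FPKM in WT.

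Of the tankyrases, Tnks, at chr8:34829179-34965690 on the minus strand, had, with Plcg2, the smallest differences between groups. It had 87.2, 80.7, 87.7 and 83.6 CPM in KO 1 to 4, against 82.2, 84.1, 80.9 and 86.99 CPM in WT 1 to 4. No library stood out, and the log2 fold change was 0.02 with a 95% interval of -0.12 to 0.16 (edgeR adjusted p = 0.818). Of its exonic bases in GENCODE, 635 also belong to Gm9939, a transcript on the opposite strand, and the strand setting of the counting is not given, so the reads of that part cannot be told apart. Tnks2 encodes the second tankyrase, which shares substrates with the first, and lies at chr19:36834232-36893477 on the plus strand. Its values were 214, 236.5, 207 and 208 CPM in KO 1 to 4, against 277, 264, 225 and 215.5 CPM in WT 1 to 4. The highest of the 8 were WT 1 and WT 2, and WT 3 and WT 4 lay within the KO range. The mean was 216 ± 13.8 CPM in KO and 245 ± 29.7 CPM in WT (SD, n = 4 each), a log2 fold change of -0.18 (SE 0.10, edgeR adjusted p = 0.404, exact permutation p = 0.171). Per length, Tnks2 exceeded Tnks in every library, 2.44, 2.91, 2.34 and 2.47 times in KO 1 to 4 and 3.35, 3.12, 2.77 and 2.46 times in WT 1 to 4.

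Because tankyrase controls SH3BP2 protein, the Sh3bp2 transcript was set against the sum of both tankyrase transcripts within each library, in CPM per kilobase. The ratio was 1.19, 1.07, 1.31 and 1.32 in KO 1 to 4, against 0.8288, 0.882, 1.11 and 1.27 in WT 1 to 4. With the authors' gene lengths, Sh3bp2 transcripts thus exceeded the tankyrase sum in 6 libraries and were below it in WT 1 and WT 2. Those lengths were 3384 bases for Sh3bp2, 6444 for Tnks and 6481 for Tnks2. All GENCODE exonic bases of these genes number 4296, 14888 and 10406, so the side of 1 depends on the lengths used. The log2 ratio averaged 0.28 ± 0.14 in KO and 0.0084 ± 0.28 in WT (SD, n = 4 each), and the difference of 0.28 gave an exact two-sided permutation p of 0.143. Without WT 1 and WT 2 the difference was 0.04 (exact permutation p = 0.667, over fewer assignments). These are transcript levels, and protein was not measured.

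Syk, at chr13:52583437-52648792 on the plus strand, encodes the kinase that docks on phosphorylated ITAMs. It had 260.2, 229.8, 264 and 256 CPM in KO 1 to 4, against 192, 195, 258 and 245.5 CPM in WT 1 to 4. The lowest libraries were WT 1 and WT 2, while WT 3 and WT 4 lay inside the KO range. The log2 fold change was 0.18 (SE 0.11, edgeR adjusted p = 0.404, exact permutation p = 0.2). Btk, at chrX:134542341-134583140 on the minus strand, encodes the Tec-family kinase that phosphorylates PLCG2. Its values were 124, 136, 119.8 and 123 CPM in KO 1 to 4, against 159.6, 156, 135 and 128 CPM in WT 1 to 4. KO 2 lay above WT 3 and WT 4, and the other 3 KO libraries were the lowest of all. Btk had the smallest unadjusted p of the 10 (0.0544), with a log2 fold change of -0.20, a 95% interval of -0.40 to 0.0047 and an edgeR adjusted p of 0.404. Abl1, at chr2:31688537-31804362 on the plus strand, encodes the kinase through which Sh3bp2 was found. It had 134, 109.7, 145 and 137 CPM in KO 1 to 4, against 84.4, 97.3, 125 and 133 CPM in WT 1 to 4. KO 2 was the lowest KO library and lay below WT 3 and WT 4. Abl1 had the largest log2 fold change of the 10 in size, 0.25 (SE 0.15, 95% interval -0.10 to 0.61, edgeR adjusted p = 0.404), and 94 of its exonic bases overlap the antisense transcript Gm13427.

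Blnk, at chr19:40928927-40994535 on the minus strand, encodes an adaptor of B cells and macrophages that SYK phosphorylates. It had 133, 168, 137 and 133 CPM in KO 1 to 4, against 179.8, 182, 161 and 125 CPM in WT 1 to 4. At the top were WT 1 and WT 2 and at the bottom WT 4, so that the WT group enclosed the whole KO range. The log2 fold change was -0.18 (SE 0.13, edgeR adjusted p = 0.419). Plcg2, at chr8:117498291-117635142 on the plus strand, encodes the phospholipase that turns these complexes into calcium release. Its values were 284, 296, 283 and 270.0 CPM in KO 1 to 4, against 277, 283, 299 and 264 CPM in WT 1 to 4. WT 3 was the highest and WT 4 the lowest, and neither WT 1 nor WT 2 stood out. The log2 fold change was 0.01 with a 95% interval of -0.13 to 0.16 (edgeR adjusted p = 0.889).

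Vav1 and Vav3 encode exchange factors that switch on Rac and related GTPases after SYK has phosphorylated them, Vav1 mainly in blood cells and Vav3 more widely. Vav1, at chr17:57279100-57329236 on the plus strand, had 238, 212, 237 and 237 CPM in KO 1 to 4, against 194, 190.3, 232 and 239 CPM in WT 1 to 4. WT 1 and WT 2 were the lowest libraries and KO 2 the next, and the log2 fold change was 0.11 (SE 0.09, edgeR adjusted p = 0.456). Vav3, at chr3:109340683-109685694 on the plus strand, had 123, 133, 107 and 114 CPM in KO 1 to 4, against 161, 149, 128 and 117 CPM in WT 1 to 4. WT 1 and WT 2 were the highest, and the log2 fold change was -0.22 (SE 0.12, edgeR adjusted p = 0.404). The pair ran in opposite directions over the libraries. Per length, Vav1 exceeded Vav3 by 2.35, 1.95, 2.70 and 2.53 times in KO 1 to 4 and by 1.47, 1.56, 2.22 and 2.495 times in WT 1 to 4.

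**Figure D2:**
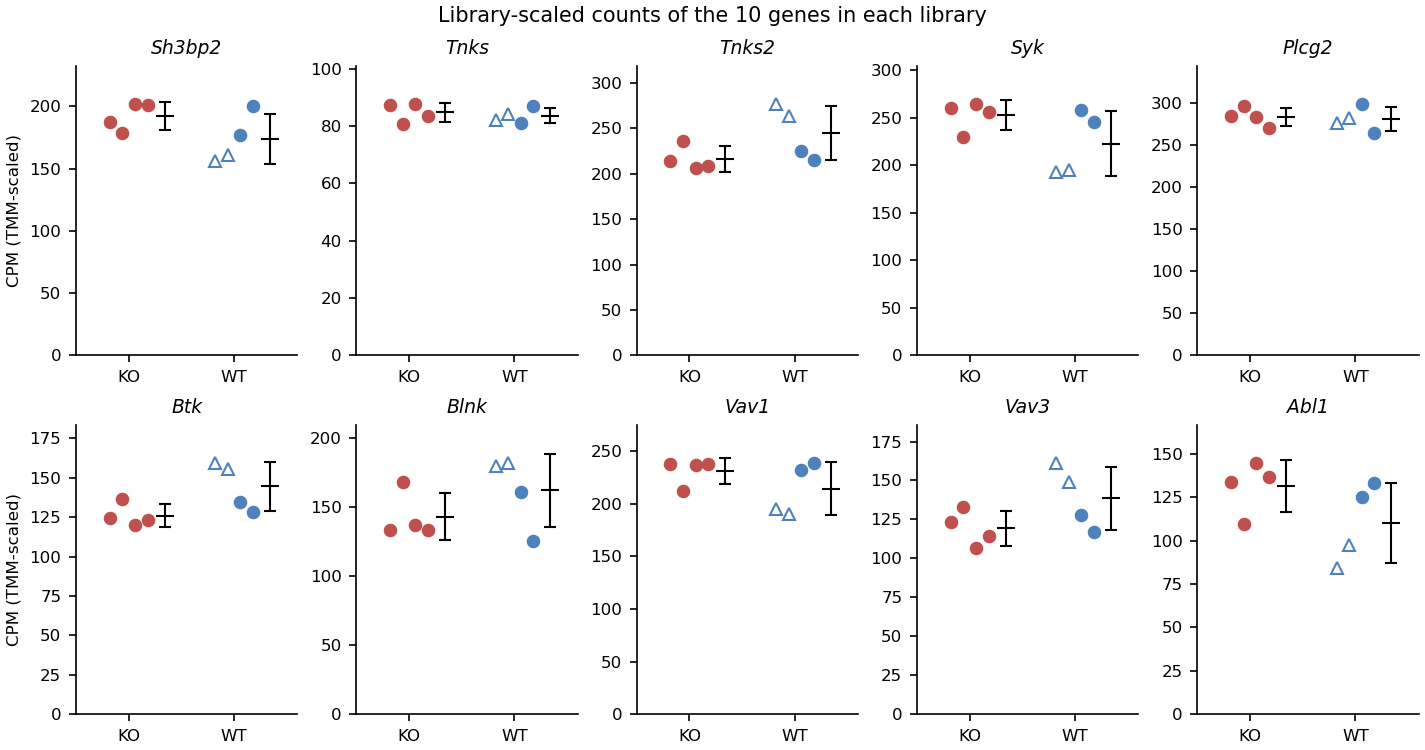
Level in CPM of each of the 10 genes in the 8 libraries, KO left and WT right in each panel, with the group mean and SD as bars and WT 1 and WT 2 as open triangles. The groups overlap in all 10 panels, and WT 1 and WT 2 lie at the low end for Sh3bp2, Syk, Vav1 and Abl1 and at the high end for Tnks2, Btk, Blnk and Vav3.

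WT 1 and WT 2 lay outside the range of the other 6 libraries for 8 of the 10 genes, below it for 4 and above it for 4. This was so for 70.2% of all genes, so the members were not unusual in it. Without these libraries the log2 fold changes of the 10 genes lay between -0.06 for Btk and 0.03 for Sh3bp2, and the widest 95% interval, that of Blnk, ran from -0.31 to 0.31. The 95% interval of Sh3bp2 then ran from -0.16 to 0.22, and Abl1 had a log2 fold change of 0.02, from -0.23 to 0.28. That of Tnks2 was -0.03, from -0.20 to 0.15, and that of Syk was 0.01, from -0.17 to 0.18. Leaving out WT 4 instead gave larger differences. Sh3bp2, Tnks2, Btk, Blnk, Vav3 and Abl1 then had unadjusted p under 0.05, with edgeR adjusted p of 0.088 to 0.098, and the log2 fold change of Abl1 was 0.36. These 6 of 10 stand beside 5207 genes or 45.1% of all at an unadjusted p under 0.05 without WT 4.

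**Figure D3:**
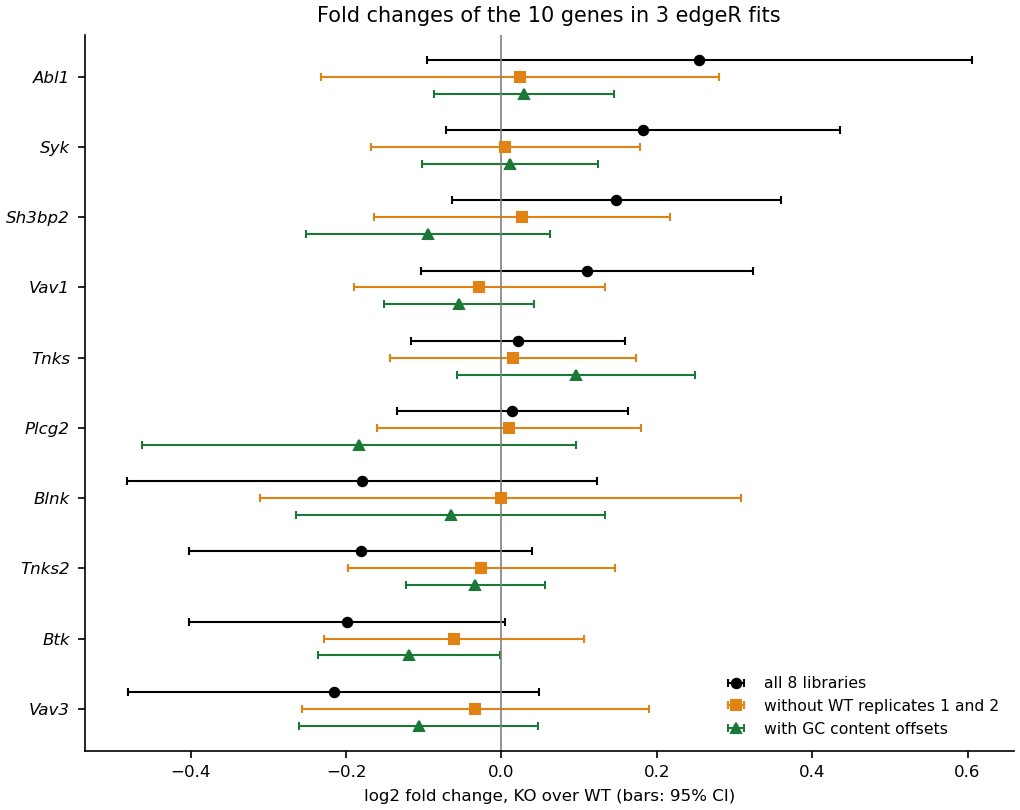
Log2 fold change, KO over WT, of each of the 10 genes with its 95% confidence interval, with all libraries, without WT 1 and WT 2, and with offsets for transcript GC content. The estimates with all libraries spread from -0.22 to 0.25, and those without WT 1 and WT 2 from -0.06 to 0.03.

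The direction of the 8 genes in which WT 1 and WT 2 stood out ran with the base composition of their transcripts, which the choice of genes did not use. Sh3bp2 (56.3% G and C), Abl1 (56.2%), Plcg2 (54.5%), Syk (54.3%) and Vav1 (54.0%) lay above the median of all genes, 49.3%. Tnks and Btk (46.8% each), Vav3 (45.9%), Blnk (45.7%) and Tnks2 (44.5%) lay below it. Plcg2 and Tnks, not among the 8, departed from this, with log2 fold changes of 0.01 and 0.02. The medians of all genes in their bins of GC content were 0.15 and -0.10. Over all 11113 genes with a sequence, 96.3% of those measured, Spearman's rho between log2 fold change and GC content was 0.71, and it was 0.09 without WT 1 and WT 2. With offsets for GC content the log2 fold changes of the 10 ran from -0.18 for Plcg2 to 0.10 for Tnks, and that of Sh3bp2 was -0.09. The ribosomal, mitochondrial and uniquely mapped shares of WT 1 and WT 2 also differed from those of the other libraries. Their part in the differences was not tested.

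**Figure D4:**
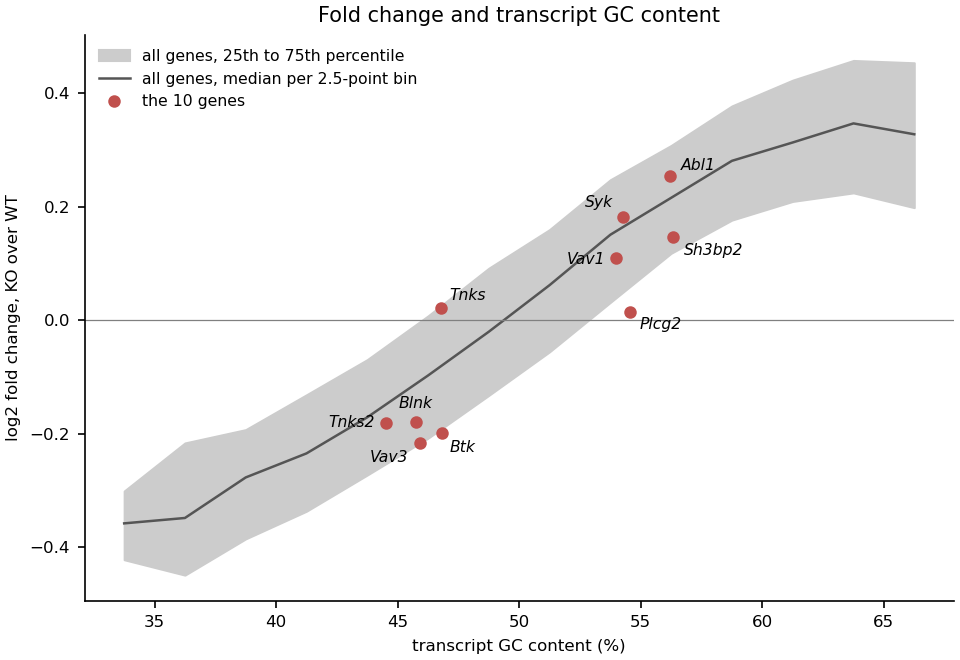
Log2 fold change, KO over WT, against transcript GC content in percent, with the median and quartiles of all genes in bins of GC content and the 10 genes as labelled points. Sh3bp2, Abl1, Syk and Vav1 lie to the upper right and Tnks2, Btk, Blnk and Vav3 to the lower left. These lie on the same side of 0 as the median of all genes in their bins. Plcg2 and Vav3 lie below the quartile range of their bins and Tnks above it.

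Over the 8 libraries 22.6% of 11540 genes had Pearson's r above 0.9 with Sh3bp2 in log2 CPM, and 22.7% had r under -0.9. Opposed patterns were thus common among all genes over the 8 libraries. Without WT 1 and WT 2, 7.22% had r above 0.9 with Sh3bp2, and the share under -0.9 is not given here. The members formed a pair of opposed sets. Abl1, Syk, Sh3bp2 and Vav1 made the first, and Tnks2, Btk, Blnk and Vav3 the second, and Tnks and Plcg2 were placed in neither because WT 1 and WT 2 did not stand out in them. Over the 6 libraries other than WT 1 and WT 2, Pearson's r of log2 CPM was 0.39 to 0.91 between genes of the first set and 0.73 to 0.95 within the second. Between the sets it was -0.98 to -0.47. Over the same 6 libraries Tnks ran with the first set, with r of 0.51 to 0.79, and against the second, -0.87 to -0.73. Plcg2 ran with the second set, with r of 0.57 to 0.90, and its r with the first was -0.87 to -0.14. The pair of Tnks2 and Abl1 gave the lowest r, -0.98, and Sh3bp2 with Syk gave the lowest within the first set, 0.39. These values describe 6 libraries, and the sets were drawn after the values were seen. The part of sequencing depth and base composition in these values was not tested. The members' summed level was nearly the same everywhere, 1764 to 1789 CPM in KO and 1754 to 1821 CPM in WT libraries.

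**Figure D5:**
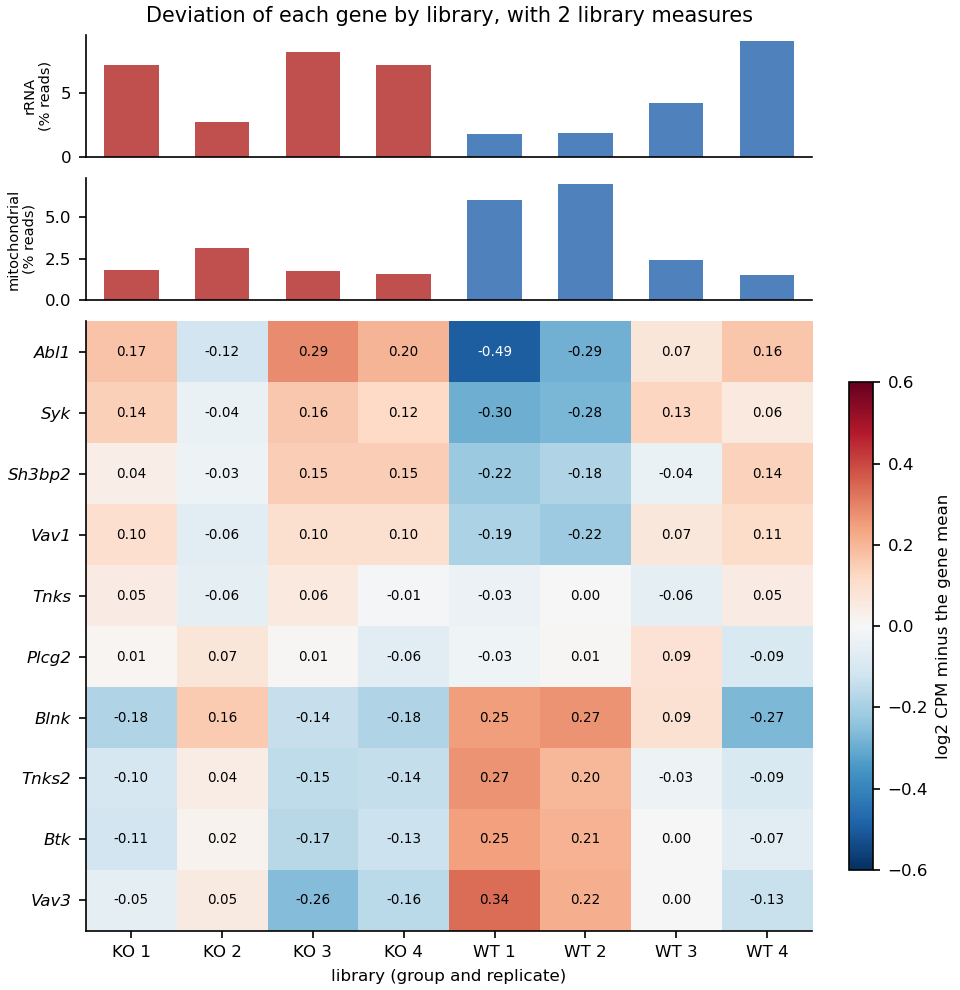
Deviation of log2 CPM from each gene's mean over the 8 libraries, for the 10 genes (rows) and the libraries KO 1 to 4 and WT 1 to 4 (columns), with the ribosomal RNA and mitochondrial read shares of each library as bars. The upper rows, Abl1, Syk, Sh3bp2 and Vav1, are low in WT 1 and WT 2, and the lower rows, Blnk, Tnks2, Btk and Vav3, are high there.

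The genes whose pattern over the 8 libraries was most like that of Sh3bp2 were Cntrob (Pearson's r = 0.998 over 8 libraries, 0.996 over 6), Rad9a (0.996 and 0.985), Dgat1 (0.995 and 0.983), Lzts3 (0.993 and 0.980) and Rfx1 (0.993 and 0.9754). Their log2 fold changes were 0.21 to 0.41, beside 0.15 for Sh3bp2. Likeness of this kind was common, since 2604 of 11540 genes (22.6%) had r above 0.9 with Sh3bp2 over 8 libraries and 833 (7.22%) over 6. None of the other 9 members was among the 5.

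Promoter sequence is shown for members of both sets. RefSeq's promoter table (GRCm38.p6) matched 9 of the 10 genes, with 14 windows of the 250 bases before a start. The motif AGGAAGT, a core bound by ETS factors including the macrophage factor PU.1, was sought on both strands, where ACTTCCT is its reverse complement. It was found in 5 windows of 4 genes, Sh3bp2, Vav1, Blnk and Vav3, and in 7.69% of the 32851 such windows in the table. Both sets of genes held it, Sh3bp2 and Vav1 from the first and Blnk and Vav3 from the second. One window each of Sh3bp2, Vav1 and Blnk is shown, 5′ to 3′ on the gene's strand and ending just before the start, with the motif in capitals.
Sh3bp2 (chr5:34543115-34543364, plus strand): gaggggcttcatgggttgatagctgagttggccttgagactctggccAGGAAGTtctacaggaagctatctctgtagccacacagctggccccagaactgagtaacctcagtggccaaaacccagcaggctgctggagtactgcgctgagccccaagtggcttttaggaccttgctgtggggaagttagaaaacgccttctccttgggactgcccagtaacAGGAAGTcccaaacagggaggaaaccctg
Vav1 (chr17:57278850-57279099, plus strand): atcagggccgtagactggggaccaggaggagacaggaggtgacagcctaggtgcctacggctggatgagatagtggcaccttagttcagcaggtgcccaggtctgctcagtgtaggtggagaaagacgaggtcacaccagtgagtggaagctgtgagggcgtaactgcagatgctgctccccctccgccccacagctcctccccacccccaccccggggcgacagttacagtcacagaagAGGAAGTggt
Blnk (chr19:40994222-40994471, minus strand): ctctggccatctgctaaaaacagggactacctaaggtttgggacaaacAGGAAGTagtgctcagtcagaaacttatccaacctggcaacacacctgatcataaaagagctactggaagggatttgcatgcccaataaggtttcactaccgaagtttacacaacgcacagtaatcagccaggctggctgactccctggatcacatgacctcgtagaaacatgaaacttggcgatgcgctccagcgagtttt
In the Sh3bp2 window the motif begins 203 and 29 bases before the start, in the Vav1 window 10 bases before it, and in the Blnk window 202 bases before it. The windows shown hold 2 CpG in Sh3bp2, 7 in Vav1 and 6 in Blnk, where the median of all windows was 6. The other Sh3bp2 window, from chr5:34549326, holds 7 CpG and the motif 178 bases before its start. Both Sh3bp2 windows lie inside the gene span given above. A match is a description of these letters and does not show that a factor binds.

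Of the 10 paralogs of the members that were looked up, 6 were among the genes measured, and 0 of 6 passed the test, with a median log2 fold change of 0.06 (-0.01 without WT 1 and WT 2). Lcp2, the adaptor most like Blnk, averaged 71.7 FPKM in KO and 86.4 FPKM in WT, so that Blnk and Lcp2 stood at ratios of 0.840 to 1.02 over the libraries. Plcg1 had 3.20 FPKM in KO and 2.88 FPKM in WT, and Plcg2 exceeded it 17.6 to 29.7 times. Without WT 1 and WT 2 the log2 fold change was 0.01 for Lcp2, against -0.27 with all libraries. For Plcg1 it was -0.05, against 0.15. Btk exceeded its relative Tec 1.99 to 2.23 times, and Abl1 exceeded Abl2 1.06 to 1.55 times. The longest identical stretch between transcripts of a member and its paralog was 13 to 35 bases, longest for Abl1 and Abl2.

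Of 17 tankyrase substrates and partners, 16 were measured and 0 passed the test, with 6 positive and 10 negative log2 fold changes and a median of -0.13 (0.00 without WT 1 and WT 2), beside -0.00 for all genes. Rnf146, the ubiquitin ligase that reads the tankyrase mark, had 32.4 ± 1.88 CPM in KO and 38.3 ± 4.88 CPM in WT (SD, n = 4 each). It was the 1 gene of the 16 with an unadjusted edgeR p under 0.05, beside 6.52% of all genes. Its log2 fold change was -0.24 with all libraries and -0.08 without WT 1 and WT 2. Terf1, the telomere protein after which tankyrase was named, had 23.98 ± 4.23 CPM in KO and 36.8 ± 14.99 CPM in WT, a log2 fold change of -0.62, with 52.7 CPM in WT 1, 46.4 CPM in WT 2 and 21.7 to 30.3 CPM in the other 6 libraries, and the value without WT 1 and WT 2 was -0.01. Amotl1, an angiomotin, had 8.01 ± 0.498 CPM in KO and 6.84 ± 0.666 CPM in WT, a log2 fold change of 0.23, or 0.15 without WT 1 and WT 2. The edgeR adjusted p was 0.404 for each of these 3 genes.

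Of 24 genes that act below the ITAM kinases, 23 were measured and 0 passed the test, with 11 positive and 12 negative log2 fold changes and a median of -0.04, or 0.01 without WT 1 and WT 2. Rasgrp3, a Ras activator that responds to the product of PLCG2, had 14.3 ± 2.33 CPM in KO and 22.1 ± 5.00 CPM in WT (log2 fold change -0.63, edgeR adjusted p = 0.404), and its log2 fold change without WT 1 and WT 2 was -0.33. Rac2, the blood-cell GTPase that VAV proteins activate, had 182 ± 15.5 CPM in KO and 145 ± 28.8 CPM in WT (0.32 on the log2 scale, edgeR adjusted p = 0.404). It lay at 115 and 127 CPM in WT 1 and WT 2 and at 159 to 192 CPM in the other 6 libraries, and its log2 fold change without the pair was 0.10. Malt1, a protease of the CARD9 complex, had 35.4 ± 4.52 CPM in KO and 45.8 ± 11.8 CPM in WT, where WT 1 and WT 2 had 56.5 and 55.5 CPM and the other 6 libraries 31.7 to 41.5 CPM. Pik3r1, a regulatory subunit of PI 3-kinase, had 151 ± 13.7 CPM in KO and 194 ± 50.6 CPM in WT, where WT 1 and WT 2 had 236.9 and 236.3 CPM and the other 6 libraries 138 to 171 CPM. Without WT 1 and WT 2 the log2 fold change was -0.01 for Malt1, against -0.37 with all libraries, and 0.0024 for Pik3r1, against -0.36. Of 18 inhibitors of ITAM signalling, 17 were measured and 0 passed the test, with 11 positive and 6 negative log2 fold changes, a median of 0.10, and of -0.01 without WT 1 and WT 2. Cbl, a ubiquitin ligase that acts on SYK, had 223 ± 4.61 CPM in KO and 208 ± 6.79 CPM in WT. It was 1 of the 17 inhibitors whose groups did not overlap, beside 2.64% of all genes. Its log2 fold change was 0.10 (0.09 without WT 1 and WT 2), with an edgeR adjusted p of 0.404. The phosphatase gene Inppl1 had 181 ± 21.3 CPM in KO and 146 ± 32.8 CPM in WT, and the Src-kinase inhibitor Csk had 204 ± 13.9 CPM in KO and 175 ± 31.1 CPM in WT. Sirpa, an inhibitory receptor, had 1459 ± 79.3 CPM in KO and 1322 ± 148 CPM in WT. These 3 had an edgeR adjusted p of 0.404 as well, and without WT 1 and WT 2 their log2 fold changes were 0.06 for Inppl1, 0.02 for Csk and 0.01 for Sirpa, against 0.31, 0.22 and 0.14 with all libraries.

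Blnk, Btk, Plcg2 and Vav1 are also B cell genes. Of 10 B cell markers only Cd22 was among the genes measured, at 2.97 to 3.95 CPM in KO and 2.33 to 4.11 CPM in WT libraries. No T or NK cell marker of 10 was among them, and of 8 mast cell markers 2 were, summing to 1.66 to 2.60 CPM in KO and 1.91 to 2.80 CPM in WT. Of 12 neutrophil and precursor markers 11 were measured, summing to 266.8 to 299 CPM in KO and 301 to 340 CPM in WT. Of 7 megakaryocyte markers 4 summed to 155 to 190 CPM in KO and 157 to 202 CPM in WT, and of 8 stromal markers 5 summed to 22.7 to 89.2 CPM in KO and 11.7 to 123 CPM in WT. Their part in the levels of the 10 genes was not tested.

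In the authors' deposited table the 10 genes had false discovery rates of 0.447 to 0.928, and the lowest rate over all genes was 0.447. For Sh3bp2 the authors' deposited table gave a log2 fold change of 0.15 with a false discovery rate of 0.459.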

How the data were processed

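RNA-seq of M-CSF-dependent bone marrow macrophages was deposited as 1 workbook for 8 libraries. The deposited counts are unscaled reads on each gene, counted with featureCounts per the file headers after STAR alignment to mm10 per the submitters' processing notes, and the log2 columns are the authors' log2 FPKM (fragments scaled to gene length and library size). The authors' deposited table also holds their p-value, false discovery rate and log2 fold change, and a signed fold change (a score, not used here), from a tool that is not named. The ribosomal, mitochondrial and uniquely mapped shares are other deposited mapping values, in percent. For tool versions, annotation, strand setting and the filter that left 11541 genes, the sources used here give nothing. Counts cover a whole gene, so a deletion of part of it can escape notice.

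Groups came from the genotype labels, and replicates were numbered in accession order. KO was compared with WT by edgeR 4.0.16 (two-sided quasi-likelihood test with TMM scaling, Benjamini-Hochberg adjustment over all genes, threshold 0.05) in R 4.3.3. The default expression filter removed 0 genes. Log2 CPM used a prior count of 2, intervals are 95%, and exact permutation tests of 4 against 4 libraries enumerated 70 assignments. With libraries left out there were fewer assignments, and the smallest p allowed was larger. Alternatives used DESeq2 1.42.0, limma 3.58.1, other scaling, filters and thresholds, a ribosomal RNA covariate, GC offsets (lowess span 0.3, GENCODE M21 transcripts) and left-out libraries. Scripts were tested on simulated data. Pairs of libraries differed by more than sampling noise (chi-square per degree of freedom 7.25 to 346). Each member had at least 3148 reads per library. Unused per-sample columns numbered 0.

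The 10 members and all lists were chosen with earlier results of these data known. Named are the members, Ogfrl1, up to 4 genes of each pathway list with the smallest p, and the 5 genes most correlated with Sh3bp2. Outside this rule, all measured paralogs are named or plotted beside their member, and Cd22 as the B cell marker found. A gene that this rule names is not reported here.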

Additional observations from a re-analysis of the deposited data

Results flagged for a closer look

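In KO 2, Blnk had 168 CPM, far above the other 3 KO libraries at 133 to 137 CPM. Vav1 had 212 CPM in the same library, far below the other 3 at 237 to 238 CPM. Each gap was large against the range of its group by Dixon's criterion for 4 samples. In all 22 groups of 4 were examined, and chance flags about 1 in 20. KO 2 held 2.71% ribosomal RNA reads, against 7.16 to 8.24% in the other KO libraries, and the part of this in both values was not tested.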

How the results depend on the processing

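Over 19 alternatives, 174 of 190 values of the 10 genes kept their direction and side of the threshold. This count includes the fit without the filter, which removed 0 genes, and the threshold of 0.1. Both gave the same estimates as the main fit by construction. With limma-voom and library quality weights, which ran from 0.185 for WT 4 to 3.67 for KO 1, 8 of the 10 genes were called with adjusted p of 0.0126 to 0.0241. All genes called numbered 6162 there and 1 with DESeq2, against 0 in edgeR. The cause was not tested. Some values changed sign. With GC offsets Sh3bp2 had a log2 fold change of -0.095, Plcg2 -0.18 and Vav1 -0.055. Without WT 1 and WT 2, Vav1 had -0.029. With the ribosomal RNA covariate Tnks had -0.0055, and with quality weights Plcg2 had -0.0069. Leaving out 1 library at a time gave -0.014 to 0.046 for Plcg2, and the log2 ratio of Sh3bp2 to both tankyrases differed by 0.18 to 0.39. Among fits with libraries left out, the number of genes at an unadjusted p under 0.05 went from 115 without WT 1 and WT 2 to 5207 without WT 4. With limma-voom and quality weights it was 6970. No paired analysis was possible because the labels carry no replicate numbers shared by both groups.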
